A study of Mus musculus with 24 samples.

Results

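The extracellular matrix and fibrosis genes were a list of 42 named genes that code for collagens, matrix glycoproteins, elastic fibre components, proteoglycans, the enzymes that modify and crosslink collagen, and a pair of growth factor ligands. Members were found by gene name in the deposited array table, and where a gene had several spots, the one with the highest mean over all samples stood for it. A named spot was found for 41 of the 42, the exception being Col6a3, and all 41 were among the 16530 of 20738 named genes that passed the filter on low signal.

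The study profiled whole-lung RNA after female C57BL/6 mice, 7 to 8 weeks old, had been dosed with 1 of 6 carbon nanomaterials, which the labels call rCNT, tCNT, SES, BayTubes, Graphite and fullerene. rCNT and tCNT are rigid and tangled carbon nanotubes, BayTubes is a commercial carbon nanotube, and the labels do not say what SES stands for. Mice breathed in 10 µg of material in 50 µl of saline (PBS) from the back of the throat (oropharyngeal aspiration) on each of 4 days. Lung tissue was collected 24 h after dosing ended, and Ctrl mice received the saline by the same route. Each sample was a pool of RNA from 2 mice, with 3 pools each of rCNT, tCNT and SES, 4 each of BayTubes, Graphite and fullerene, and 3 of Ctrl. Pools are named by group and label number, as in rCNT 4. The comparisons ask which matrix genes each material changed, and whether rCNT differed from tCNT and from the other 5 materials.

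The extracellular matrix of the lung is laid down mainly by fibroblasts and by cells of the airway and vessel walls. Fibrillar collagens give it tensile strength, elastin and fibrillin give it recoil, and basement membrane collagens underlie epithelium and endothelium. In fibrosis, transforming growth factor beta and related ligands such as activin drive fibroblasts towards contractile, matrix-producing myofibroblasts, and proteins such as fibronectin, osteopontin and tenascin-C form the provisional matrix of an injured lung.

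Values are log2 array signals, so a difference of 1 is a 2-fold difference, and signals of different genes are not compared with each other. Ctrl pools lay on 2 of the 3 array slides: slide 1 held rCNT 4 with Ctrl 2, slide 2 held rCNT 6 with Ctrl 1 and Ctrl 3, and slide 3 held rCNT 5 with no Ctrl. The SD of residuals over all genes was largest in rCNT 4 (0.495), Graphite 16 (0.43) and Graphite 13 (0.389), the first and second of which shared an array, and lay at 0.16 to 0.313 in the remaining pools. Markers of alveolar type 2 cells were bright in all pools, with mean signals of 15.14 to 15.32 in rCNT pools and 15.33 to 15.55 in Ctrl pools. P-values measure the spread between these pools, and the number of arrays limits their precision. For each gene 1 estimate of spread was shared by all 24 pools of the 7 groups. SEs and p-values of a comparison therefore do not rest on its own pools alone.

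Of the 6 materials, rCNT alone brought members past the threshold against Ctrl. At an adjusted p under 0.05 (limma, adjusted over all genes tested), 11 of the 41 members were higher and 3 were lower after rCNT than in Ctrl. Over all genes tested, 21.8% changed in this comparison, 12.4% higher and 9.4% lower. The counts by role and by list given below for rCNT against Ctrl are to be read beside these shares. The median log2 change was 0.32 over the members and -0.01 over all genes. The raised members were Inhba, Thbs1, Vcan, Spp1, Tgfbi, Col3a1, Fn1, Col18a1, Col5a1, Fbn1 and Col5a3, and the lowered ones Plod2, P4ha1 and Fbln5. Leaving out rCNT 6, Ctrl 1 or Ctrl 2 brought the number to 9, and leaving out the other rCNT and Ctrl pools gave 10 to 15. In each of these 6 fits Inhba, Thbs1, Vcan, Tgfbi, Col18a1, Plod2 and P4ha1 kept their calls. With array as a fixed term, which compares pools within arrays, Inhba, Thbs1 and Vcan alone of the 14 kept theirs. In that fit Tgfbi, Col18a1, Plod2 and P4ha1 had adjusted p of 0.154, 0.146, 0.0799 and 0.198. No rCNT pool shared an array with a Ctrl pool, so that fit compares rCNT with Ctrl only through pools of other materials.

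**Figure D1:**
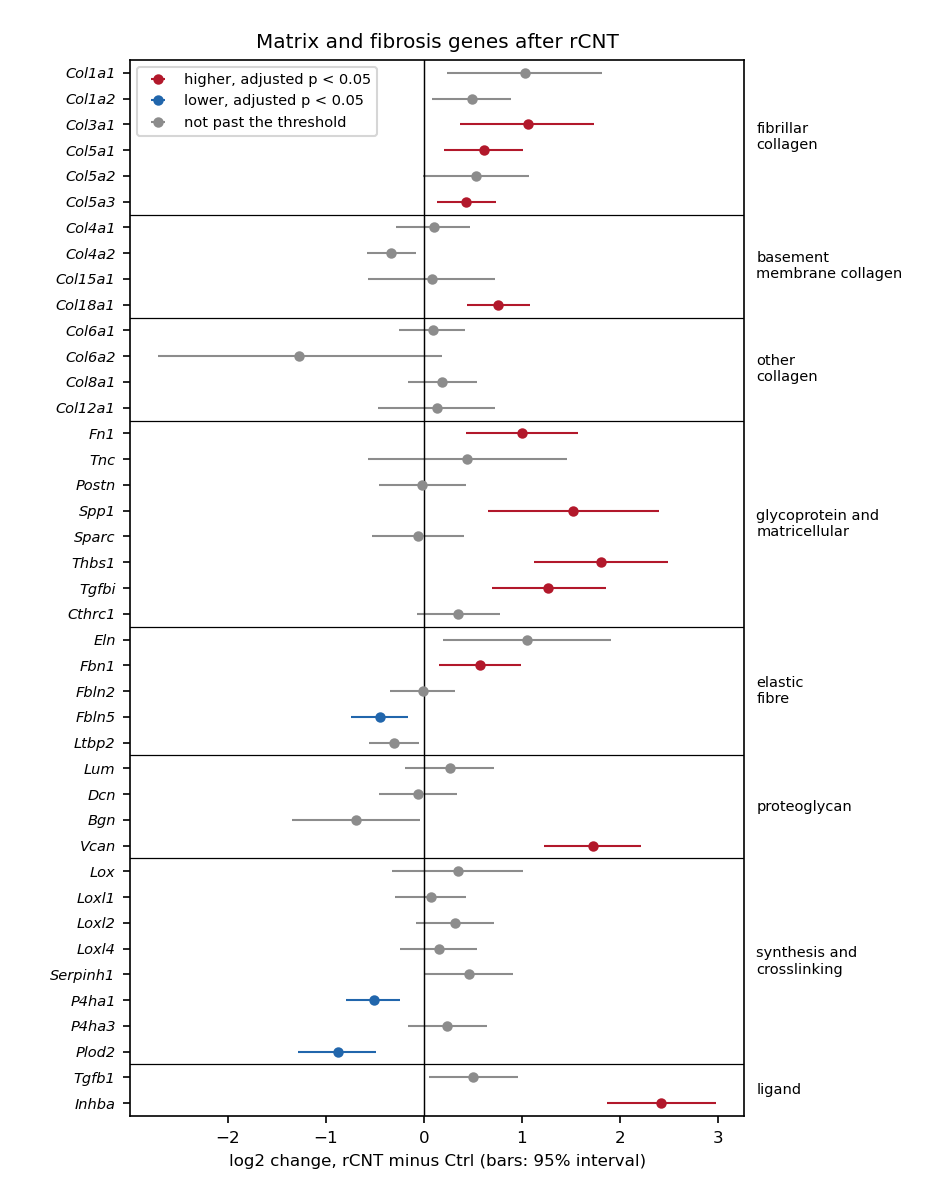
Log2 change, rCNT minus Ctrl, of the 41 members grouped by role, with 95% intervals as bars (limma, 3 pools per group). The 11 members in red and 3 in blue passed an adjusted p under 0.05, and Inhba lies furthest from 0 at 2.42.

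For the 4 raised members with the largest changes that had an entry among RefSeq promoters (build GRCm38.p6), and for P4ha1, the lowered member with an entry and the largest change, the 250 bases before a start in that promoter table are given below, 5′ to 3′ on the strand of the gene, to show what these windows of responding genes contain. For Spp1 and Tgfbi that start is the outer end of the annotated gene. For Inhba it lies 7595 bases inside the gene's outer bounds, for Vcan 515 and for P4ha1 99, so these windows overlap the annotated gene. They lie at chr13:16011601-16011850 (plus strand) for Inhba, chr13:89742513-89742762 (minus strand) for Vcan, chr5:104434861-104435110 (plus strand) for Spp1, chr13:56609336-56609585 (plus strand) for Tgfbi, chr10:59323046-59323295 (plus strand) for P4ha1. Capitals mark matches on either strand to the letters TATAAA of the TATA box, TGANTCA of the AP-1 factor, CCAAT of the box of that name or GGGCGG of the GC box, and no matches overlap in these windows.
Inhba: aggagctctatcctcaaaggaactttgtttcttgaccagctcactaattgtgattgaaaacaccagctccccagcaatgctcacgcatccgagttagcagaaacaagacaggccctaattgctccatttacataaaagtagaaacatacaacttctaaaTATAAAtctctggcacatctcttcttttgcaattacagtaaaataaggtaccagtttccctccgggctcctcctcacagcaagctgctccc
Vcan: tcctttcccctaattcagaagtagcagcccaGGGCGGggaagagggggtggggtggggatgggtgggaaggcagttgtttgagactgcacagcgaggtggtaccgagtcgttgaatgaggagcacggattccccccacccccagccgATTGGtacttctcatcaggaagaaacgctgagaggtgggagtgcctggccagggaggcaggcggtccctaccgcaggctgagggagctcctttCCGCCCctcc
Spp1: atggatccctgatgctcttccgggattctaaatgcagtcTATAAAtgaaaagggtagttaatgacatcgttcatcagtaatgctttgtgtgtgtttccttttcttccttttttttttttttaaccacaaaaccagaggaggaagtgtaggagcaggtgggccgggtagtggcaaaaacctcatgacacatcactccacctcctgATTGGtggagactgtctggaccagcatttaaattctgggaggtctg
Tgfbi: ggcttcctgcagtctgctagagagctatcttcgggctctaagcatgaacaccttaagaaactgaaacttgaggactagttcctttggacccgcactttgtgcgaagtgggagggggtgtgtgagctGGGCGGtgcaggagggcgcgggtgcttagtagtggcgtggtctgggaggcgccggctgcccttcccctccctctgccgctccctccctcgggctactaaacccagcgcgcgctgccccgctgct
P4ha1: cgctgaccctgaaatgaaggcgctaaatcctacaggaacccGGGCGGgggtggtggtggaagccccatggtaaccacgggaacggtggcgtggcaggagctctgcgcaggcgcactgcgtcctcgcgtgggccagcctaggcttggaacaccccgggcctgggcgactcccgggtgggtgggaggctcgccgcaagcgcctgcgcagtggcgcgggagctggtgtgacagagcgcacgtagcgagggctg

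Of the 42 members, 29 had a RefSeq promoter entry. TATAAA stood in 4 of these 29 windows, those of Col3a1, Inhba, Spp1 and Tnc, against 13.0% of 27025 windows of all genes. CCAAT was found in 8 of 29, against 34.5% of all, and GGGCGG in 20 of 29, against 33.0% of all. TGANTCA was found in the Col6a1 window alone among the members, against 6.9% of all. These are matches of letters in a window and not sites shown to be used.

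Inhba, which codes for the subunit of the ligand activin A, had the largest change of all members. Its signal was 8.95 in rCNT 4, 9.76 in rCNT 5 and 9.93 in rCNT 6, against 6.93, 6.87 and 7.01 in Ctrl 1, 2 and 3. Every rCNT pool was far above every Ctrl pool. The log2 change was 2.42 ± 0.27 (SE, 3 pools per group), a 5.36-fold rise (adjusted p = 4.25e-06).

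After the other materials Inhba stayed below the rCNT level. It read 7.47, 7.62 and 7.66 in the tCNT pools, 7.17, 7.05 and 7.20 in the SES pools, and 8.23, 7.28, 7.71 and 7.71 in the BayTubes pools. In Graphite pools it read 7.38, 7.57, 7.08 and 7.31, and in fullerene pools 8.22, 6.95, 7.18 and 7.31. All 18 pools of these materials lay below the lowest rCNT pool. On slide 1, rCNT 4 was 2.07 above Ctrl 2, and on slide 2, rCNT 6 was 2.96 above the mean of Ctrl 1 and Ctrl 3, both given with no test.

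Tgfb1, the transforming growth factor beta ligand itself, did not pass the test against Ctrl. It read 11.53 in rCNT 4, 10.33 in rCNT 5 and 10.80 in rCNT 6, against 10.36, 10.39 and 10.03 in the Ctrl pools. rCNT 4 was high, while rCNT 5 lay within the Ctrl range. The log2 change was 0.50 ± 0.22 (adjusted p = 0.104). It was 0.23 (adjusted p = 0.424) without rCNT 4, and passed without rCNT 5, at 0.78 (adjusted p = 0.0233). With all pools kept and slide as an added term it also passed, at 0.62 (adjusted p = 0.0381). Of 9 further Tgfb1 spots, 8 had the same sign as the spot used, and the remaining spot read -1.49.

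Among 21 other genes of the TGF-beta and activin pathway, 1 rose and 5 fell after rCNT, with a median change of -0.20. That is 28.6% of the list, where 21.8% of all genes passed. The gene that rose was Fst, which codes for follistatin, the secreted protein that binds and blocks activin, with a log2 change of 0.98 ± 0.20 (adjusted p = 0.00149). Of those that fell, Ltbp4, which codes for a protein that tethers latent TGF-beta to the matrix, changed most, by -0.88 ± 0.14 (adjusted p = 0.000153). The 4 others, named after their values were seen, were the co-receptors Eng and Tgfbr3, the signal transducer Smad3 and the ligand Tgfb3.

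Matrix glycoproteins and matricellular proteins held the next largest changes, with 4 of 8 members higher and none lower. Thbs1 codes for thrombospondin-1, which can activate latent TGF-beta. It read 11.75, 12.09 and 12.47 in rCNT 4, 5 and 6, against 10.18, 10.47 and 10.50 in Ctrl 1, 2 and 3. The groups were more than 1 log2 unit apart at their nearest, and the change was 1.81 ± 0.33, or 3.49-fold (adjusted p = 0.000529).

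Among the other materials, Thbs1 came up to the rCNT level in a single pool. BayTubes 20 read 12.10, above rCNT 4 and level with rCNT 5, and the 17 remaining pools of the 5 materials were below all rCNT pools. The median of the 18 was 10.76.

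Spp1 codes for osteopontin, a secreted adhesion protein made by activated macrophages and other cells. Its signal was 11.86, 11.77 and 12.50 in rCNT pools, against 10.53, 9.77 and 10.60 in Ctrl pools. The groups did not overlap, and all 18 pools of the other materials, at 9.83 to 11.52, were below the lowest rCNT pool. The change was 1.52 ± 0.42, or 2.87-fold (adjusted p = 0.0131). The call was lost without rCNT 6 or without Ctrl 2, at changes of 1.33 to 1.39 and adjusted p of 0.0533 to 0.0679.

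Tgfbi, a TGF-beta-induced adhesion protein that binds collagen, read 13.57, 14.06 and 14.19 in rCNT pools, against 12.59, 12.59 and 12.62 in Ctrl pools. Ctrl pools were nearly identical and all rCNT pools were higher. The change was 1.27 ± 0.28 (adjusted p = 0.0026). Of the 18 pools of other materials, 17 lay below the lowest rCNT pool, and fullerene 21, at 13.65, lay just above it.

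Fn1 codes for fibronectin, a main glycoprotein of provisional matrix. It read 14.47, 15.35 and 15.58 in rCNT pools, against 13.88, 14.25 and 14.36 in Ctrl pools. rCNT 4 was only just above the highest Ctrl pool, and the change was 1.00 ± 0.27 (adjusted p = 0.0128). Without rCNT 5, rCNT 6 or Ctrl 1 the change was 0.77 to 0.88 and the call was lost (adjusted p of 0.0625 to 0.0721).

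The other 4 glycoproteins did not pass the test. Tnc (tenascin-C) read 7.27, 6.63 and 6.61 in rCNT pools, against 6.33, 5.82 and 7.21 in Ctrl pools, and the groups overlapped. Postn (periostin) changed by -0.02, Sparc (a collagen-binding protein) by -0.06 and Cthrc1 (a protein secreted by activated fibroblasts) by 0.35, with adjusted p of 0.231 to 0.968.

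**Figure D2:**
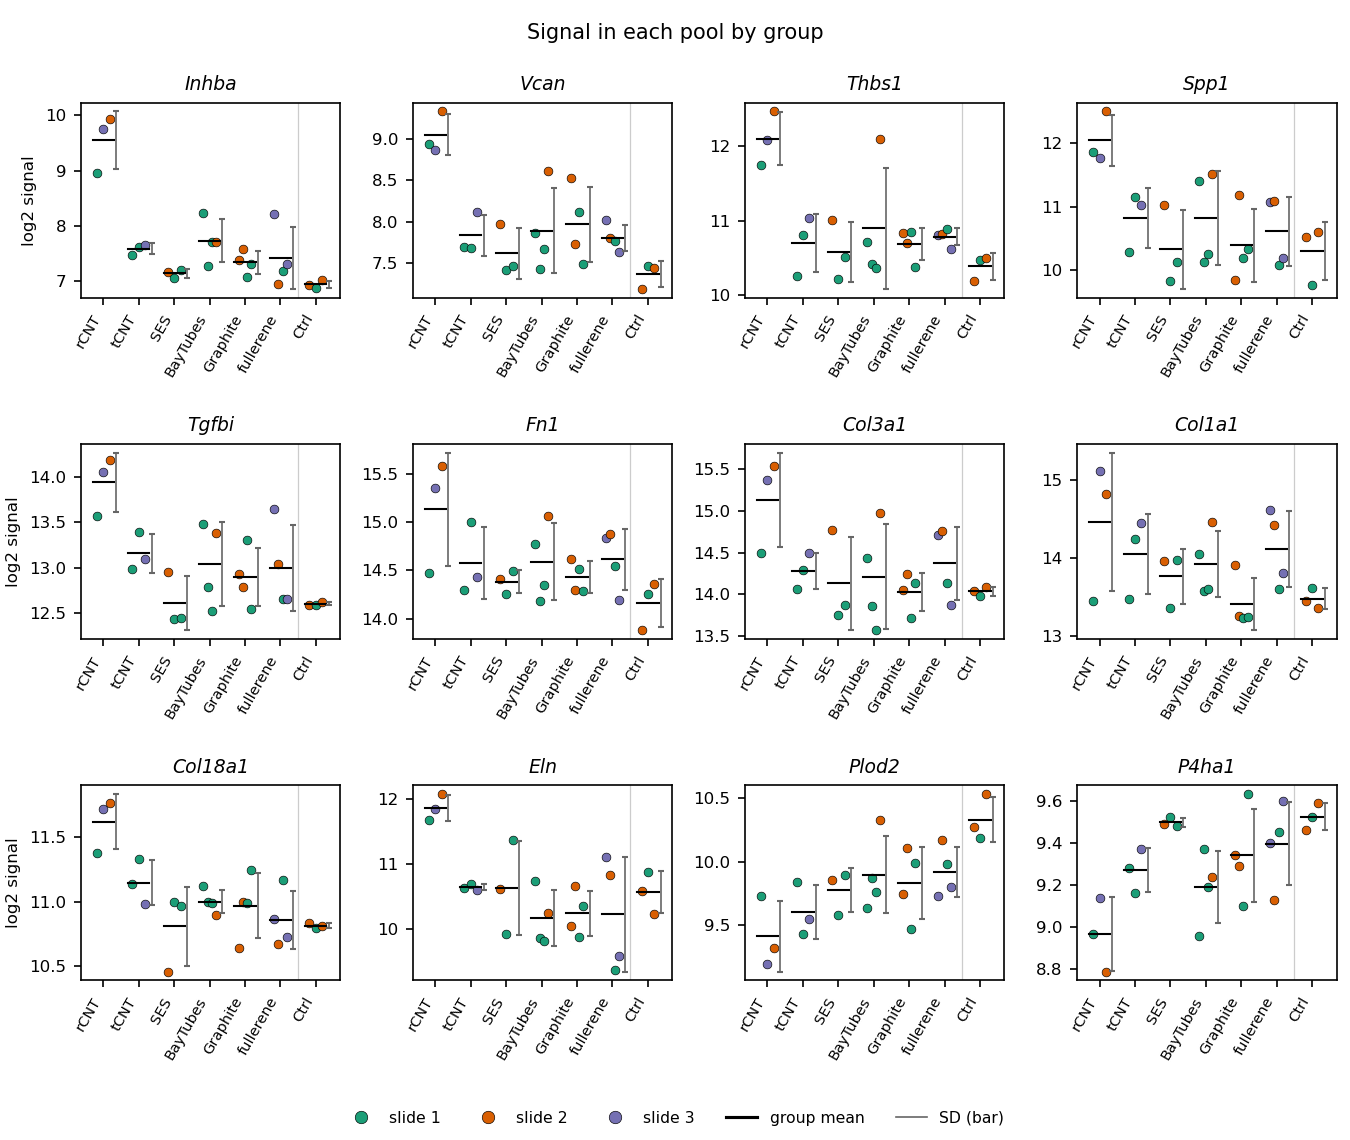
Log2 signal of 12 members in each of the 24 pools by group, coloured by slide, with the group mean as a line and the SD as a bar. For Inhba, Vcan, Spp1, Col18a1 and Eln all rCNT pools sit above every other pool, while for Col1a1 rCNT 4 sits among the Ctrl pools.

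Fibrillar collagens form the load-bearing fibrils of the matrix, and 3 of the 6 were higher after rCNT. Col3a1, the chain of type III collagen, read 14.49, 15.37 and 15.54 in rCNT pools, against 14.04, 13.98 and 14.09 in Ctrl pools. All rCNT pools were higher, rCNT 4 least so. The change was 1.06 ± 0.33, or 2.08-fold (adjusted p = 0.0257).

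Type V collagen, which regulates fibril assembly, followed in smaller steps. Col5a1 read 10.41, 11.08 and 11.10 in rCNT pools, against 10.18, 10.18 and 10.40 in Ctrl pools, and rose by 0.61 ± 0.19 (adjusted p = 0.0281). Col5a3 read 8.76, 9.40 and 9.31 in rCNT pools, against 8.63, 8.70 and 8.84 in Ctrl pools, and rose by 0.43 ± 0.14 (adjusted p = 0.0375). For Col5a3 the groups overlapped, since rCNT 4 was below Ctrl 3. Calls for Col3a1, Col5a1 and Col5a3 were each lost on leaving out any of rCNT 5, rCNT 6 and the 3 Ctrl pools, with adjusted p of 0.0504 to 0.198. Col5a2 changed by 0.53 ± 0.26 and did not pass (adjusted p = 0.155).

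The chains of type I collagen, the most abundant collagen of scar, did not pass the test. Col1a1 read 13.45 in rCNT 4, 15.12 in rCNT 5 and 14.82 in rCNT 6, against 13.45, 13.62 and 13.36 in Ctrl 1, 2 and 3. rCNT 4 lay within the Ctrl range and the other rCNT pools more than 1 unit above it. The change was 1.03 ± 0.38 (adjusted p = 0.0568) with rCNT 4 and 1.47 (adjusted p = 0.00495) without it. With rCNT 4 kept, Col1a1 also passed with no dye term, with quantile normalization of the tested genes and with cyclic loess, at 1.03 to 1.16 (adjusted p = 0.0454, 0.0379 and 0.03).

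Col1a2 behaved likewise, at 15.44, 16.17 and 15.90 in rCNT pools and 15.37, 15.40 and 15.46 in Ctrl pools. Its change was 0.49 ± 0.19 (adjusted p = 0.0797) with rCNT 4 and 0.69 (adjusted p = 0.0131) without it, and it passed with cyclic loess (0.65, adjusted p = 0.0209). Across the members, rCNT 4 was the lowest of the 3 rCNT pools for 25 of 41, and for 9 of the 11 raised ones. The median SD over the members was 0.36 in rCNT pools and 0.17 in Ctrl pools. The same counts and medians over all genes are not given here, and rCNT 4 had the largest SD of residuals over all genes (0.495).

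Of the 4 basement membrane collagens, Col18a1 rose. It codes for type XVIII collagen, the precursor of the angiogenesis inhibitor endostatin. Its signal was 11.38, 11.72 and 11.77 in rCNT pools, against 10.84, 10.80 and 10.81 in Ctrl pools. The 18 pools of other materials, at 10.46 to 11.33, all lay below the lowest rCNT pool. The change was 0.76 ± 0.15, or 1.69-fold (adjusted p = 0.00141), and a second Col18a1 spot differed by 0.54 on group means.

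The type IV collagen chains, the network of the basement membrane, did not pass, Col4a1 at 0.10 ± 0.18 and Col4a2 at -0.33 ± 0.12 (adjusted p = 0.0551). Col4a2 passed without Ctrl 3, at -0.41 (adjusted p = 0.0336). The 9 further Col4a1 spots gave differences of 0.02 to 0.19. Among 17 other basement membrane genes none was higher and 3 (17.6%) were lower, where 9.4% of all genes were lower. The median change of these 17 was -0.24. Lamb2, a laminin chain, changed most, by -0.82 ± 0.13 (adjusted p = 0.000178), and Lama3, another laminin chain, changed by -0.61 ± 0.16 (adjusted p = 0.00833).

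None of the 4 other collagens passed the test. Col6a2, a chain of the microfibrillar type VI collagen, had the widest spread of any member. It read 7.82, 11.75 and 10.10 in rCNT pools, against 11.65, 11.78 and 11.03 in Ctrl pools, and the change was -1.27 ± 0.69 (adjusted p = 0.203). Without rCNT 5 it was -2.45 and passed (adjusted p = 0.0166). Low readings came in pairs on arrays: rCNT 4 (7.82) with Graphite 16 (7.40), rCNT 6 (10.10) with Graphite 14 (9.60), and fullerene 23 (9.40) with Graphite 15 (9.38). The 18 remaining pools read 10.86 or more. Col6a1, the partner chain, read 13.93 to 14.56 in the pools of all 7 groups and changed by 0.09 ± 0.16 after rCNT.

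Elastic fibre genes moved in both directions, with 1 of 5 higher and 1 lower. Fbn1, which codes for the microfibril protein fibrillin-1, read 11.48, 12.07 and 12.27 in rCNT pools, against 11.10, 11.64 and 11.06 in Ctrl pools. rCNT 4 was below Ctrl 2, so the groups overlapped, and the change was 0.57 ± 0.20 (adjusted p = 0.0461). Its call was lost without rCNT 5, rCNT 6, Ctrl 1 or Ctrl 3 (0.41 to 0.51, adjusted p of 0.119 to 0.228), and the difference of rCNT 4 and Ctrl 2 on slide 1 was -0.16.

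Fbln5, a fibulin needed to assemble elastic fibres, was lower, at 12.24, 12.10 and 12.48 in rCNT pools, against 12.39, 12.81 and 12.91 in Ctrl pools. The groups overlapped by rCNT 6 and Ctrl 1, and the change was -0.45 ± 0.14 (adjusted p = 0.0242). A second Fbln5 spot differed by 0.03, and the call was lost without rCNT 4, rCNT 5, Ctrl 2 or Ctrl 3 (adjusted p of 0.0514 to 0.103).

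Eln, which codes for elastin, read 11.68, 11.85 and 12.08 in rCNT pools, against 10.59, 10.89 and 10.24 in Ctrl pools. The groups did not overlap, and the highest of the 18 pools of other materials, SES 12, read 11.37. The change of 1.05 ± 0.41 nevertheless missed the threshold (adjusted p = 0.0716). It passed with no dye term (1.13, adjusted p = 0.0427), with no array block (1.28, 0.0313) and with only the groups compared (1.21, 0.0301). Ltbp2 (named as a member of the latent TGF-beta binding protein family) changed by -0.30 ± 0.12 and Fbln2 (a fibulin) by -0.01 ± 0.16, and neither passed. Without rCNT 6 the change of Ltbp2 was -0.38 (adjusted p = 0.0494).

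Among proteoglycans, 1 of 4 was higher. Vcan codes for versican, a large proteoglycan of provisional matrix that binds hyaluronan. It read 8.94, 8.87 and 9.33 in rCNT pools, against 7.19, 7.47 and 7.44 in Ctrl pools. Groups were more than 1 unit apart, and the change was 1.72 ± 0.24, or 3.29-fold (adjusted p = 3.6e-05).

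Vcan also varied among the other materials, though below rCNT. It read 7.70, 7.68 and 8.12 in tCNT pools, 7.97, 7.42 and 7.46 in SES pools, 7.86, 7.43, 7.67 and 8.61 in BayTubes pools, 8.53, 7.73, 8.12 and 7.49 in Graphite pools, and 8.02, 7.80, 7.77 and 7.64 in fullerene pools. Of these 18 pools, BayTubes 20 and Graphite 13 came nearest to rCNT. A second Vcan spot differed by 0.66 after rCNT on group means, against 1.68 for the spot used. The small leucine-rich proteoglycans of mature matrix, Lum, Dcn and Bgn, changed by 0.27, -0.06 and -0.69, with adjusted p of 0.124 to 0.858.

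Of the 8 genes for the enzymes and the chaperone of collagen synthesis and crosslinking, none was higher and 2 were lower. Over all genes, 12.4% were higher and 9.4% lower. Plod2, a lysyl hydroxylase that prepares collagen for stable crosslinks, read 9.73, 9.20 and 9.32 in rCNT pools, against 10.27, 10.19 and 10.53 in Ctrl pools. Each rCNT pool was below each Ctrl pool, and the change was -0.88 ± 0.19, which is 1.84-fold lower (adjusted p = 0.00217).

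P4ha1, a catalytic subunit of prolyl hydroxylase, which stabilises the collagen helix, read 8.97, 9.14 and 8.79 in rCNT pools, against 9.46, 9.52 and 9.59 in Ctrl pools. The groups did not overlap, and the change was -0.51 ± 0.13 (adjusted p = 0.00827). A second P4ha1 spot differed by -0.29. Outside rCNT, the lowest P4ha1 reading was 8.96 in BayTubes 17.

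The lysyl oxidases, which crosslink collagen and elastin, did not pass against Ctrl: Lox changed by 0.35 ± 0.32, Loxl1 by 0.07 ± 0.17, Loxl2 by 0.32 ± 0.19 and Loxl4 by 0.15 ± 0.19. Serpinh1, the collagen chaperone, changed by 0.46 ± 0.22 (adjusted p = 0.146), and P4ha3 by 0.24 ± 0.19 (adjusted p = 0.405). A second P4ha3 spot differed by 0.64 on group means, against 0.18 for the spot used. With the mean of all spots of a gene, P4ha3 passed, at 0.41 (adjusted p = 0.0128). Spots disagreed for Loxl2, whose 2 further spots differed by -0.78 and -0.71, and for Loxl1, whose further spot differed by -0.26. Among 18 other collagen processing genes, none was higher and 2 (11.1%) were lower, near the 9.4% of all genes that were lower. These 2 were Pcolce2, an enhancer of procollagen processing, by -1.16 ± 0.17 (adjusted p = 5.63e-05) and P3h3, a prolyl hydroxylase family member, by -0.44 ± 0.16 (adjusted p = 0.0493).

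Of 16 matrix proteases and inhibitors, 7 were higher and 2 lower after rCNT, with a median change of 0.43. That is 56.2% of the list, where 21.8% of all genes passed. Mmp19, a matrix metalloproteinase, rose by 1.42 ± 0.12 (adjusted p = 3.4e-07), and Timp1, an inhibitor of these enzymes, rose by 3.70 ± 0.46, or 13-fold (adjusted p = 1.48e-05).

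Of 20 matrix receptors, 2 were higher and 6 lower, with a median of -0.22. That is 40% of the list, where 21.8% of all genes passed. Itga7, a laminin-binding integrin chain of muscle, rose by 1.52 ± 0.18 (adjusted p = 8.29e-06), and Itga1, a collagen-binding chain, fell by 1.04 (adjusted p = 0.000537). Among 25 further matricellular, elastic fibre and proteoglycan genes 1 was higher and 5 lower. That is 24% of the list, near the share over all genes. The lower ones included Tnxb, a tenascin of loose connective tissue, at -1.05 ± 0.18 (adjusted p = 0.000296), and Ogn, a small leucine-rich proteoglycan, at -0.84 ± 0.15 (adjusted p = 0.000435).

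**Figure D3:**
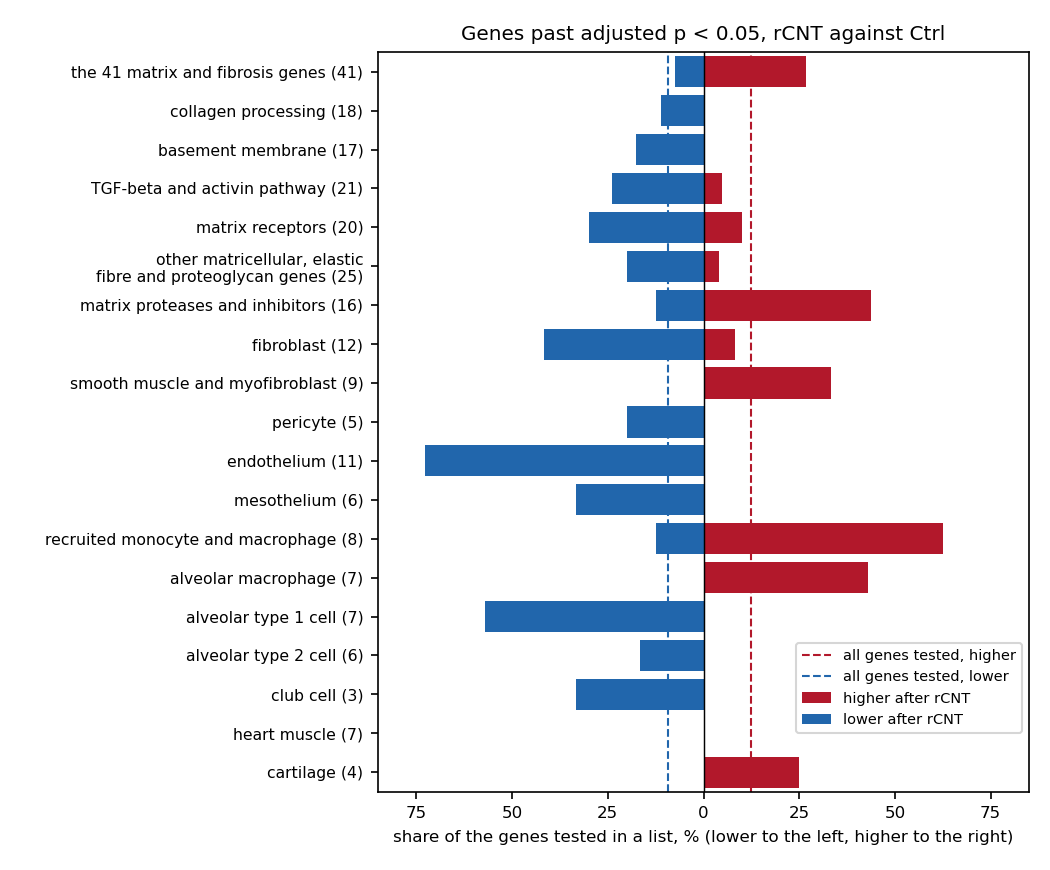
Share of the genes in each list that were higher (right, red) or lower (left, blue) after rCNT than in Ctrl at an adjusted p under 0.05, with the number tested in brackets and the share over all 16530 genes as dashed lines. Among the genes that passed, those of collagen processing, basement membrane and endothelium were all lower, and those of smooth muscle and alveolar macrophages all higher.

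Markers of the cells that make or hold matrix shifted in the same comparison. Of 12 fibroblast markers, 1 was higher and 5 lower after rCNT, and their summed signal was 57200 to 85000 in rCNT pools, against 125000 to 135000 in Ctrl pools. Inmt alone made up 70.9% to 82.9% of that sum in rCNT pools and 82.7% to 83.7% in Ctrl pools. The sum of the other 11 was 14500 to 16600 in rCNT pools, against 21300 to 22100 in Ctrl pools, and the list's median change was -0.35. Of 9 smooth muscle and myofibroblast markers, 3 were higher and none lower, with sums of 63600 to 87700 in rCNT pools and 39700 to 51600 in Ctrl pools. Actg2, a smooth muscle actin, rose by 1.52 ± 0.20 (adjusted p = 2.86e-05), and Acta2, an actin of smooth muscle and myofibroblasts, by 0.97 ± 0.19 (adjusted p = 0.00103). The median change of these 9 was 0.39, and the 6 that did not pass changed by -0.50 (Myh11) to 0.45 (Cnn1).

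Endothelial markers were lower for 8 of 11 and higher for none, and pericyte markers lower for 1 of 5. Mesothelial markers were lower for 2 of 6. Of 8 recruited monocyte and macrophage markers, 5 were higher and 1 lower, with a median change of 1.23. Their sums overlapped, at 25700 to 28100 in rCNT pools and 21900 to 30100 in Ctrl pools. Their mean log2 signals were 10.77 to 10.96 in rCNT pools and 9.58 to 9.71 in Ctrl pools. The lower marker, Itgam, named here for its weight in these sums, had means of 13.74 after rCNT and 14.43 in Ctrl. Itgam changed by -0.70 ± 0.16 (adjusted p = 0.00298). C1qa and C1qb, chains of the complement protein C1q, rose by 1.48 and 1.63 (adjusted p = 0.000256 and 0.000804). Cd68 and Gpnmb, which did not pass, changed by 0.63 and 0.68. Of 7 alveolar macrophage markers 3 were higher, with sums of 106000 to 215000 in rCNT pools and 71200 to 75300 in Ctrl pools. Chil3 made up 66.2% to 89.7% of that sum in rCNT pools and 69.8% to 77.6% in Ctrl pools. The list's median change was 0.00, and Marco, Siglecf, Pparg and Car4, the 4 that did not pass, changed by -0.52 to 0.00.

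Among epithelial markers, 4 of 7 for alveolar type 1 cells, 1 of 6 for type 2 cells and 1 of 3 for club cells were lower and none higher. Of 4 cartilage markers tested 1 was higher, Sox9, a transcription factor of cartilage, by 0.90 ± 0.20 (adjusted p = 0.00255). For Sox9 the groups overlapped, with an SD of 0.64 in rCNT and 0.17 in Ctrl pools. Its Ctrl mean of 5.77 lay close to the filter level. None of 7 heart muscle markers passed. In rCNT and Ctrl all of these tested markers had a mean above the filter level, and in the other 5 groups 1 or 2 of the cartilage markers did not. Since whole lung was measured, a change in the number of cells of a type and a change in RNA per cell cannot be told apart, and the part of these shifts in the members' changes was not tested.

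After the other 5 materials none of the 41 members passed the threshold against Ctrl. Over all genes, 0.708% passed after tCNT (0.684% higher and 0.0242% lower) and 0% after SES. After BayTubes 3.18% passed (2.16% higher and 1.02% lower), after Graphite 1.13% (0.544% higher and 0.587% lower) and after fullerene 0.26% (0.151% higher and 0.109% lower). At an unadjusted p under 0.05 (limma), 4 members were counted after tCNT (9.29% of all genes), 1 after SES (4.52%), 8 after BayTubes (13.9%), 4 after Graphite (20.5%) and 4 after fullerene (12.1%). After rCNT there were 21 (34.7% of all genes). Median changes over the members were 0.12, 0.03, 0.01, 0.00 and 0.06 in the same order of materials. These comparisons share the Ctrl pools with each other and with rCNT.

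Counting members whose pools did not overlap with the Ctrl pools also set rCNT beside the other materials. After rCNT 12 members lay wholly above and 2 wholly below Ctrl, where 18.9% and 15.8% of all genes did. After tCNT the counts were 5 above and 3 below (8.95% and 7.44% of all genes), and after SES 1 above and 1 below (7.25% and 5.98%). After BayTubes they were 3 above and 2 below (6.55% and 5.7%), after Graphite 2 above and 2 below (9.4% and 4.54%), and after fullerene 5 above and 3 below (11.2% and 5.44%).

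**Figure D4:**
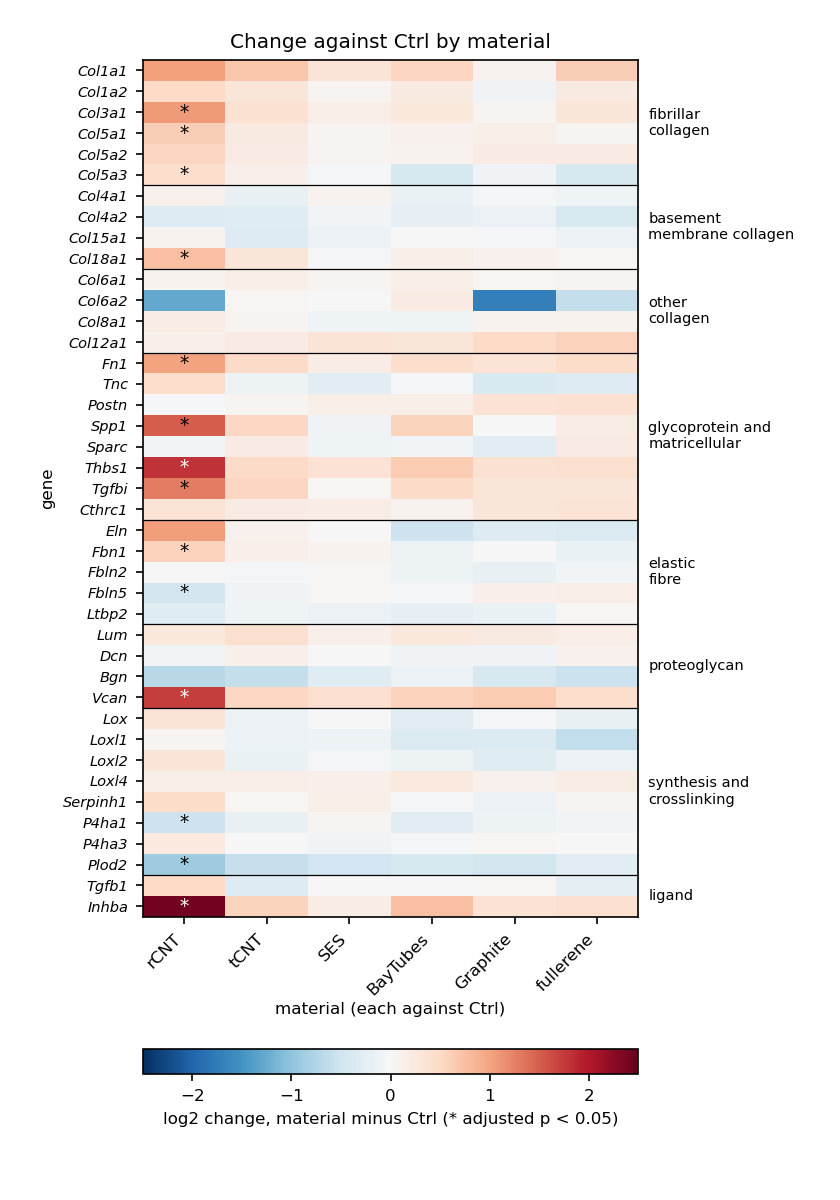
Log2 change against Ctrl of the 41 members (rows, by role) for the 6 materials (columns), on a scale from -2.5 to 2.5, with stars for an adjusted p under 0.05. All 14 stars are in the rCNT column, and the dark blue Graphite cell is Col6a2 at -1.71.

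The members raised after rCNT had smaller positive changes after most other materials, none of which passed. For Inhba these were 0.56 after tCNT, 0.19 after SES, 0.75 after BayTubes (adjusted p = 0.0677), 0.36 after Graphite and 0.40 after fullerene. For Vcan they were 0.51, 0.40, 0.58, 0.63 and 0.43, and for Thbs1 0.47, 0.36, 0.63, 0.38 and 0.41, in the same order. Without BayTubes 18, Inhba passed after BayTubes, at 0.98 (adjusted p = 0.0294). With only BayTubes and Ctrl pools fitted, Inhba passed at 0.62 (adjusted p = 0.0154) and Vcan at 0.53 (adjusted p = 0.0302).

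Plod2 was below Ctrl on average after every material, by -0.58 after tCNT, -0.47 after SES, -0.41 after BayTubes, -0.46 after Graphite and -0.29 after fullerene, with adjusted p of 0.134 to 0.976. Col5a3, raised after rCNT, changed by -0.41 after BayTubes (adjusted p = 0.0657) and by -0.41 after fullerene (adjusted p = 0.249). Eln changed by -0.51 after BayTubes (adjusted p = 0.575) and by 0.10 after tCNT.

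Of the wider lists, Mmp19 rose by 0.48 ± 0.10 (adjusted p = 0.0108) and Timp1 by 1.46 ± 0.38 (adjusted p = 0.0373) after BayTubes. Eng fell by 0.64 and Itga6, a laminin-binding integrin chain, by 0.47 after BayTubes. After Graphite, Lamb2 fell by 0.55 and Itga1 by 0.79. No gene of the 6 matrix pathway lists passed after tCNT, SES or fullerene.

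rCNT was next set against the tangled nanotubes, tCNT. Here 4 of 41 members were higher and none lower, where 8.83% of all genes passed, 5.7% higher and 3.13% lower. The pools did not overlap for 10 members that were higher and 1 that was lower after rCNT, against 13.6% and 9.5% of all genes. Inhba was higher by 1.86 (adjusted p = 0.000216) and Vcan by 1.21 (adjusted p = 0.00284), and both kept their calls whichever rCNT or tCNT pool was left out. Thbs1 read 11.75, 12.09 and 12.47 in rCNT pools, against 10.26, 10.80 and 11.03 in tCNT pools, without overlap, a difference of 1.33 (adjusted p = 0.0132). It was lost without rCNT 6 or tCNT 7, at 1.05 to 1.18 (adjusted p of 0.056 to 0.1).

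Tgfb1 was the remaining member, at 11.53, 10.33 and 10.80 in rCNT pools, against 10.30, 9.73 and 9.86 in tCNT pools. rCNT 4 was high and rCNT 5 only just above tCNT 7, and the difference was 0.83 (adjusted p = 0.0192). That call was lost without rCNT 4, tCNT 7, tCNT 8 or tCNT 9 (0.54 to 0.88, adjusted p of 0.0515 to 0.0942). With the mean of all Tgfb1 spots it was also lost. Leaving out tCNT 7 brought the number of members called to 2. For Col3a1 the difference of 0.68 and for Spp1 that of 1.01 did not pass (adjusted p = 0.203 and 0.137).

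Against the mean of the other 5 materials, 16 members were higher and 3 lower after rCNT, where 26.2% of all genes passed, 13.8% higher and 12.4% lower. Without rCNT 6 the number was 12. The 14 members called against Ctrl were all among these 19. The 5 further ones were Eln, at 1.28 (adjusted p = 0.00375), Tgfb1, at 0.61 (adjusted p = 0.008), and Loxl2, Serpinh1 and Loxl1, at 0.39 to 0.48. Tgfb1 was lost without rCNT 4 (0.32, adjusted p = 0.145), Loxl1 without any 1 of the rCNT pools (adjusted p of 0.0684 to 0.0905) and Loxl2 without rCNT 4 or rCNT 6 (0.0903 to 0.115). Loxl1 and Loxl2 were also lost with the mean of all spots of a gene. Serpinh1 was lost in 15 fits with a pool left out, most of them pools of the other materials (0.0511 to 0.281). Col3a1, Col5a1, Fbn1, Fn1 and Plod2 lost this call without rCNT 5 or rCNT 6 (0.0606 to 0.232).

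All 3 rCNT pools lay above all 18 pools of the other 5 materials for 6 of 41 members, Inhba, Vcan, Spp1, Col18a1, Eln and Loxl1, where 5.63% of all genes did so. None lay wholly below them, where 3.12% of all genes did. By group mean, rCNT was highest of the 7 groups for 26 of the 41 members, against 30.8% of all genes. Ctrl had the lowest mean for 10 members (20.0% of all genes) and Graphite for 8 (12.6%). rCNT had it for 5 (29.8% of all genes), Postn, Fbln5, Ltbp2, P4ha1 and Plod2.

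The slide on which a pool was measured moved with some members. Between slides 2 and 1, 7 of 41 members differed at an adjusted p under 0.05, where 13.5% of all genes did: Lox by 0.73, Spp1 by 0.73, Col15a1 by 0.72, Col3a1 by 0.62, Col12a1 by 0.53, Serpinh1 by 0.43 and Col5a1 by 0.40, each higher on slide 2. Between slides 3 and 1, Lox (0.93) and Serpinh1 (0.58) were higher on slide 3, where 7% of all genes differed. With slide as a term all 14 calls after rCNT were kept, and Tgfb1 also passed, at 0.62 (adjusted p = 0.0381). Slides 1 and 2 each hold 1 rCNT pool, so their pools are set side by side without a test.

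The differences between those pools, with no test, had the sign of the fitted change on both slides for 13 of the 14 called members, Fbn1 being the exception. For Spp1 the difference was 2.09 on slide 1 and 1.93 on slide 2, and for Vcan 1.47 and 2.02. For Fn1 it was 0.22 on slide 1 and 1.46 on slide 2, and for Col3a1 0.51 and 1.47. For Plod2 it was -0.46 and -1.08 and for P4ha1 -0.55 and -0.74. Tnc and Col15a1, neither called, differed in sign between the slides, at 1.45 and -0.16 for Tnc and 0.67 and -0.25 for Col15a1.

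Tnc and Col15a1, a collagen of the basement membrane zone, were high in the same 4 pools of slide 2, which paired on 2 arrays, and Tnc was also high in rCNT 4 of slide 1, at 7.27. Tnc read 8.07 in BayTubes 20 and 7.21 in Ctrl 3, which shared an array, and 6.77 in SES 10 and 7.02 in fullerene 22, which shared another. Col15a1 read 7.17 and 6.69 on the first array and 6.67 and 6.85 on the second. BayTubes 20 was the highest of the 18 pools outside rCNT and Ctrl for 12 of the 41 members, among them Col3a1, Fn1, Spp1, Thbs1 and Vcan. The same count over all genes is not given here.

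**Figure D5:**
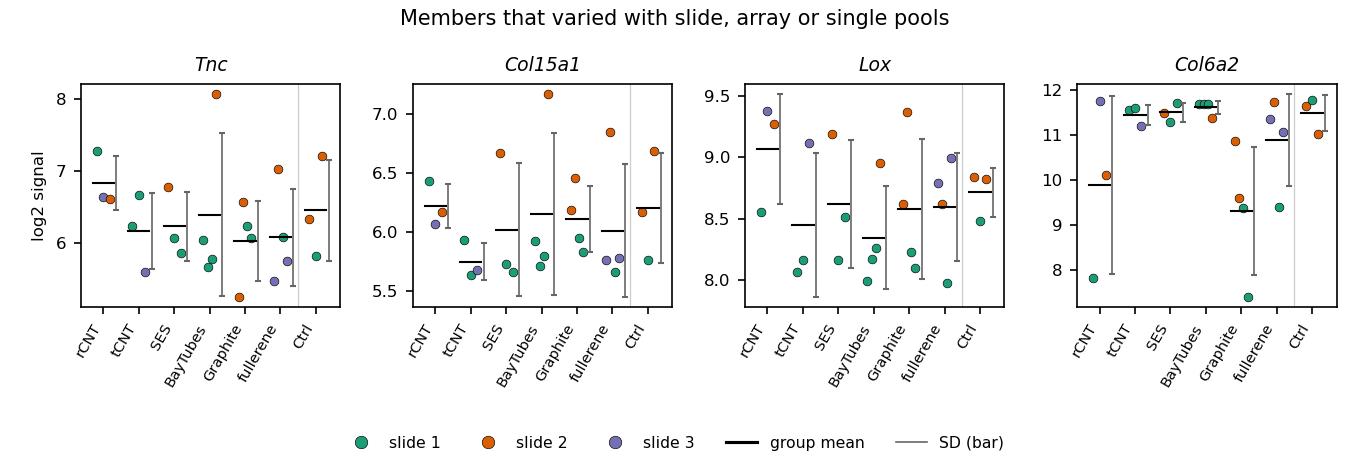
Log2 signal of Tnc, Col15a1, Lox and Col6a2 in each of the 24 pools by group, coloured by slide, with group means as lines and SDs as bars. For Col15a1 the highest points in SES, BayTubes, fullerene and Ctrl are from slide 2, and Col6a2 falls to 7.40 in Graphite 16 and 7.82 in rCNT 4.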

How the data were processed

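RNA of 24 lung pools was measured on 12 2-colour Agilent arrays on 3 slides, 2 pools per array. The deposited values are log2 signals of 62976 spots, and per the submitters' processing notes they came from Agilent Feature Extraction and limma, versions not given in the sources used here. Sorted values of any 2 samples differed by at most 0.086, as after quantile normalization. Spots were named from the platform annotation, updated through a RefSeq gene table of GRCm38.p6: 31465 were named and 31511 were not. Of 20738 named genes, each by its brightest spot, 16530 lay above each sample's 40th percentile (5.69 to 5.75) in at least 3 samples. limma 3.58.1 (R 4.3.3, statmod 1.5.0) fitted group and dye with array as a random block (correlation 0.399), 2-sided, with Benjamini-Hochberg adjustment over all genes of a comparison. The procedure was tested on simulated data. Tables and figures were made with Python 3.11.15, pandas 2.3.3 and matplotlib 3.10.9. The members and gene lists were chosen with earlier results of these data known. Any member may be named, and of each other list up to 2 called genes per comparison with the smallest p, unless stated. Alternatives covered filters, normalization, dye, array, slide, spots and left-out pools.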

Additional observations from a re-analysis of the deposited data

Results flagged for a closer look

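Among 123 sets of 4 pools (41 members in BayTubes, Graphite and fullerene), 9 held a pool far from the other 3 by Dixon's 95% criterion, which chance meets in about 1 of 20 sets. In BayTubes 20, Tnc read 8.07 (other BayTubes pools 5.67 to 6.04), Col15a1 read 7.17 (5.71 to 5.92), Postn read 12.62 (12.19 to 12.25) and Col6a2 read 11.38 (11.68 to 11.7). In BayTubes 17, Fbln5 read 12.43 (12.71 to 12.74). In fullerene 22, Col15a1 read 6.85 (other fullerene pools 5.66 to 5.78) and Ltbp2 read 13.58 (13.96 to 14.04). Col1a1 read 13.91 in Graphite 13 (other Graphite pools 13.23 to 13.25). Sparc read 15.91 in Graphite 14 (16.86 to 17.02).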

How the results depend on the processing

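Of 308 combinations of the 14 members called after rCNT with an alternative, 226 kept the call, 81 lost it and 1 reversed, Fbn1 within slide 1 at -0.18. Inhba, Thbs1 and Vcan kept their calls against Ctrl in every alternative run, while against tCNT all 3 lost theirs when array was a fixed term or when other groups were left out. Against Ctrl, 14 members became 7 at an adjusted p under 0.01, 4 with array as a fixed term, 8 within slide 1, 7 with only the groups compared, and 9 to 15 with a pool left out. Against tCNT, 4 became 2, 0, 8 and 0 under the same settings, and 2 to 6 with a pool left out. Against the mean of the other 5 materials, 19 became 12 at 0.01, 12 with a 1.5-fold minimum, 2 with array as a fixed term, and 12 to 20 with a pool left out. After BayTubes, 0 became 1 with quantile normalization within the genes tested, 1 with cyclic loess and 1 on leaving out the array shared by rCNT 4 and Graphite 16 (Col5a3 in each, -0.44 to -0.42), 6 within slide 2, 7 with only the groups compared, and 0 to 1 with a pool left out. Within slide 2, 0 became 2 after Graphite and 2 after fullerene. After tCNT and SES the count was 0 in every alternative run. Slide 2 held no tCNT pool, so rCNT against tCNT and against the mean of the others has no value there. Where groups shared at most 1 array, the fit with only those groups had no array block. Fits within 1 slide rest on 1 rCNT pool and on its array partners, can differ from the pools' own differences (Bgn fitted at 1.92 on slide 2, where the pools differ by -0.24), and say nothing of stability. The 4 calls with array as a fixed term include Bgn (-1.4), which is not among the 14. The cause of these differences was not tested. Pools could not be paired by sample number, because the numbers run from 1 to 24 across the groups and no number is shared. Pools that share an array were a random block, and array as a fixed term above is the comparison within arrays. No rCNT pool shared an array with a Ctrl or tCNT pool. For rCNT against Ctrl or tCNT, the fixed-term fit is therefore indirect, through pools of other materials.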
